A study of Mus musculus with 15 samples.

Results

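Aldo-keto reductase genes were measured by RNA-seq in mouse endometrial epithelial organoids, and the 9 genes described here are *Akr1b3*, *Akr1b7*, *Akr1b8* and *Akr1b10* of the AKR1B subfamily, *Akr1c12*, *Akr1c13* and *Akr1c14* of the AKR1C subfamily, *Akr1a1* and *Akr1e1*. They were found by matching the Ensembl identifier of each row to its symbol, and all 9 were among the 16729 genes of the table. *Akr1b7* was chosen by its normalized counts, since its rise with A83-01 in control organoids was already known. The other 8 belong to the same family, and further family genes such as *Akr1c18* are given further on. The list was drawn up with earlier results of these data known, so the p-values of the other 8 are not for genes chosen independently of the data. The comparison of A83-01 with vehicle in control organoids is therefore given as a description, with no p-value for these genes.

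Organoids were grown in Matrigel from the uterine epithelium of adult female mice. Control mice carried floxed alleles of both *Smad2* and *Smad3* (Smad2flox/flox; Smad3flox/flox), and *Smad2/3* cKO mice had these alleles together with Ltf-iCre (Ltfcre/+), a Cre recombinase under the lactoferrin promoter that is active in the uterine epithelium. A83-01 is a kinase inhibitor of the TGFβ and activin receptors that phosphorylate SMAD2 and SMAD3, and DMSO was its vehicle. The groups were control + vehicle (n = 3), control + A83-01 (n = 4), *Smad2/3* cKO (n = 4, vehicle only) and *Smad2/3* cKO + A83-01 (n = 4), so that loss of the transcription factors and blockade of their receptors could be compared.

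Aldo-keto reductases use NADPH to reduce aldehydes and ketones to alcohols. The AKR1B members include aldose reductase, which turns glucose into sorbitol, and close relatives that reduce lipid aldehydes and can make prostaglandin F2α in the uterus and adrenal gland. The AKR1C members act mainly on steroids and prostaglandins, and in the mouse ovary and uterus the best known of them, the 20α-hydroxysteroid dehydrogenase encoded by *Akr1c18*, inactivates progesterone.

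The AKR1B genes lie in 1 cluster on chromosome 6 and most AKR1C genes in 1 cluster on chromosome 13. On GRCm38, in the GENCODE annotation, *Akr1b3* spans chr6:34302434-34317478 on the minus strand, and *Akr1b8* (chr6:34354119-34368463), *Akr1b10* (chr6:34384218-34396950) and *Akr1b7* (chr6:34412334-34423142) follow it on the plus strand. *Akr1c14* (chr13:4049011-4090688) and *Akr1c13* (chr13:4191150-4205596) lie on the plus strand, and *Akr1c12* (chr13:4268176-4279433) and *Akr1e1* (chr13:4590750-4609174) on the minus strand. *Akr1a1* lies apart at chr4:116636510-116651680, on the minus strand.

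The stretches before the starts of 5 of these genes are shown because neighbours in each cluster differed in their response. Each runs from base 250 to base 51 before the RefSeq start on GRCm38.p6, 5′ to 3′ on the strand of the gene, and the capitals mark the letters of motifs searched on both strands. The windows are chr6:34412112-34412311 for *Akr1b7*, chr6:34353896-34354095 for *Akr1b8*, chr6:34383997-34384196 for *Akr1b10*, chr13:4190937-4191136 for *Akr1c13* (all on the plus strand) and chr13:4279450-4279649 on the minus strand for *Akr1c12*.
Akr1b7 promoter: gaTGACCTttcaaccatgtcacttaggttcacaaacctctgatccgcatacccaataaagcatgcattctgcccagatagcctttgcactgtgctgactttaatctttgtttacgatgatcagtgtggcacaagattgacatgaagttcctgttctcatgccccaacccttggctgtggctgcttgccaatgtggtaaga
Akr1b8 promoter: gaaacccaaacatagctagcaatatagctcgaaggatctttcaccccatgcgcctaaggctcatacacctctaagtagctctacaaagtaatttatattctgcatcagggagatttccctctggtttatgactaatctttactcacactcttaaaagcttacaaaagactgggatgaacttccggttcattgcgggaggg
Akr1b10 promoter: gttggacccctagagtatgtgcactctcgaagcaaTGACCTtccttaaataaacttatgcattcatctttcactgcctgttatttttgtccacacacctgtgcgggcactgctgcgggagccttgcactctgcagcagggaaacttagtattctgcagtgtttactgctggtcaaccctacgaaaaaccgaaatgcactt
Akr1c13 promoter: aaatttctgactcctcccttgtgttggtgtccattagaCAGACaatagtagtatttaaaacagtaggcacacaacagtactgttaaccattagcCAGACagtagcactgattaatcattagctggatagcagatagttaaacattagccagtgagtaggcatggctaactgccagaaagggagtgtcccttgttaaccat
Akr1c12 promoter: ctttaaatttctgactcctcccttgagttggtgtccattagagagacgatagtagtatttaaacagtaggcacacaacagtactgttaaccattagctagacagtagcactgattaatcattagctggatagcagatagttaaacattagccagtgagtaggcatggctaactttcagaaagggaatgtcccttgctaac

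Among the 32851 RefSeq promoter windows of this length, 35.8% held CAGAC, the core of the SMAD-binding element, 11.4% held AGGTCA, a recognition site of nuclear receptors, and 7.66% held TGACNNNGC, the core of the antioxidant response element that NRF2 binds. The *Akr1b7* window held AGGTCA on the other strand, where it reads TGACCT in the line shown, at bases 248 to 243 before the start, and the *Akr1b10* window held it at bases 215 to 210. The *Akr1b8* and *Akr1c12* windows held none of the 3 motifs. The *Akr1c13* window held CAGAC at bases 212 to 208 and 156 to 152. It was 94% identical to the *Akr1c12* window. Among the windows not shown, CAGAC also stood before *Akr1c14* (bases 127 to 123) and, on the other strand, before *Akr1c18* (122 to 118) and *Akr7a5* (170 to 166). The *Akr7a5* window held AGGTCA on the other strand at bases 59 to 54. A match is only a match of letters in this window, and its relation to the response of a gene was not tested. Of 13 aldo-keto reductase genes looked up, 12 had a RefSeq window, and *Akr1b3* had none.

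Some of the members resemble each other closely enough that reads could be shared. The coding sequence of *Akr1b7* was 89.2% identical to that of *Akr1b10* and 84.8% identical to that of *Akr1b8*, and the identity of *Akr1c12* and *Akr1c13* was 96.2%. Among stretches of 31 bases in the annotated transcripts, 27.7% of those of *Akr1b7* occurred in another gene, most often in *Gm13857* (19.2%). For *Akr1b3* it was 15.2%, most often in *Gm38056* (14.1%). *Akr1b8* and *Akr1b10* shared 94 such stretches, 6.41% of the *Akr1b8* total and 2.64% of the *Akr1b10* total. For *Akr1a1* and *Akr1e1*, 3.54% and 1.81% occurred in any other gene. *Akr1c12* and *Akr1c13* shared 483 such stretches, 39.2% of the *Akr1c12* total and 33.7% of the *Akr1c13* total. Their separate values are therefore uncertain, and their sum is given further on.

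The values are normalized counts, that is, the number of reads estimated for a gene divided by a size factor of the sample, and they summed to 20.2 to 24.4 M per sample. Values of 3 or less were taken as the floor of the measurement. The epithelial identity of the organoids was clear from *Epcam*, *Cdh1* and 4 keratins, whose summed normalized count was 240842 to 309429 in control + vehicle and 120018 to 265255 in the other 3 groups. The counts of the deleted genes cover exons outside the deleted part too and so do not check the deletion; *Smad2* was at 1045 to 1335 in control + vehicle and at 821 to 924 in *Smad2/3* cKO, and *Smad3* at 1532 to 1741 and at 1170 to 1977. Replicate 2 of *Smad2/3* cKO stood apart in leukocyte markers, with *Adgre1* at 351, *Tyrobp* at 128 and *Cd52* at 112, whereas *Tyrobp* was 0 in the other 14 samples. In bulk samples such as these, fewer cells of a type and less RNA per cell cannot be told apart.

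*Akr1b7* (ENSMUSG00000052131), which encodes an aldose reductase-like protein known from the vas deferens and the adrenal cortex, was at or near the floor in control organoids and present in every sample with A83-01 or the deletion. In control + vehicle its normalized counts were 0, 2.68 and 5.31 (2.66 ± 2.65, SD, n = 3). In control + A83-01 they were 618, 482, 1820 and 1946 (1216 ± 773, SD, n = 4). The *Smad2/3* cKO samples were at 1246, 287, 462 and 883 (719 ± 431, SD, n = 4). Every one of these 8 samples was above every control + vehicle sample, and the lowest, 287, was the replicate 2 with the leukocyte markers, whose part in the value was not tested.

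With both deletion and inhibitor the *Akr1b7* normalized counts were 1664, 2986, 1597 and 1237 (1871 ± 767, SD, n = 4). This group had the highest mean, followed by control + A83-01, *Smad2/3* cKO and control + vehicle, and only the step to control + vehicle was free of overlap between neighbours in that order. In the labels all samples of the group with both carry mouse numbers below 390, while each other group holds numbers on both sides. Set against the control + vehicle mean, the means were 457 times (95% counting interval 232 to 1060), 270.3 times (137 to 627) and 703 times (357 to 1630) as high with A83-01 alone, with deletion alone and with both. The intervals treat the normalized counts of the 3 vehicle samples as reads and cover counting error only.

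**Figure D1:**
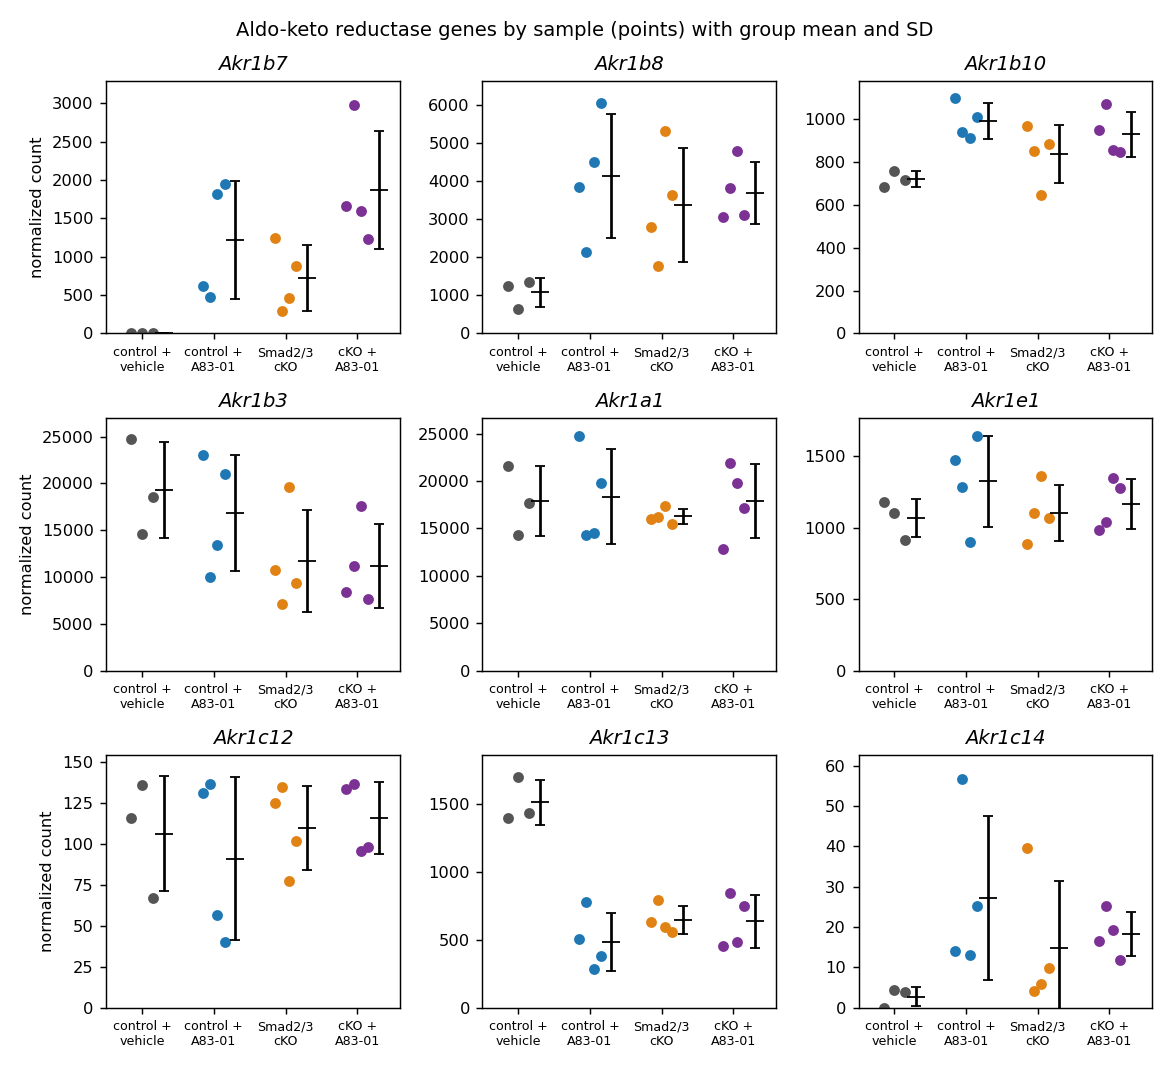
Normalized counts of the 9 genes (vertical axes, 1 panel per gene) in the 4 groups (horizontal axes); points are samples, and the bars beside them show the group mean and SD. *Akr1b7* was near 0 in the 3 control + vehicle samples and between 287 and 2986 in the other 12, while *Akr1c13* was at 1401 to 1699 in control + vehicle and at 287 to 848 elsewhere.

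On the scale of log2(normalized count + 1), *Akr1b7* was higher by 8.47 (SE 0.73) with A83-01 in control organoids and by 7.76 (SE 0.71) in *Smad2/3* cKO against control, both with vehicle. Without cKO replicate 2 the second value was 8.13. The same 3 vehicle samples stand in both of these comparisons, so they are not independent of each other. In the comparison that shares no sample with the one in which the gene was picked, A83-01 in *Smad2/3* cKO organoids, the log2 difference was 1.52 (95% interval 0.55 to 2.49). Its unadjusted limma p was 0.00584, but after adjustment over all genes the p was 0.994 and the groups overlapped by 1 pair of samples (1246 in *Smad2/3* cKO and 1237 with A83-01). Replicate 2 of *Smad2/3* cKO and replicate 1 of *Smad2/3* cKO + A83-01 carry the same mouse number, and between them *Akr1b7* was 5.81 times as high with A83-01. That cKO sample, the one with the leukocyte markers, had the lowest *Akr1b7* of its group. Without it the log2 difference for A83-01 in cKO organoids was 1.15. The A83-01 difference was smaller in cKO than in control organoids by 6.96 on the log2 scale (SE 0.89).

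*Akr1b8* (ENSMUSG00000029762), an aldose reductase-like gene first known for its response to fibroblast growth factor, also stood higher with A83-01 or the deletion. Its normalized counts in control + vehicle were 1249, 652 and 1344 (1081 ± 375, SD, n = 3). They were 3855, 2128, 4492 and 6037 in control + A83-01 (4128 ± 1618, SD, n = 4), all above the highest vehicle sample. Deletion without inhibitor gave 2785, 1760, 5314 and 3620 (3370 ± 1503, SD, n = 4). The lowest cKO sample, 1760, was again replicate 2, and it too was above every control + vehicle sample. With deletion and A83-01 the values were 3059, 3814, 4790 and 3098 (3690 ± 811, SD, n = 4), within the range of the cKO samples.

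The log2 difference of *Akr1b8* was 1.91 (SE 0.37) with A83-01 in control organoids. In *Smad2/3* cKO against control it was 1.60 (SE 0.37, limma adjusted p = 0.0184), which did not pass the threshold of 0.01; without cKO replicate 2 it was 1.87 (adjusted p = 0.00858) and passed, as it did with all 4 groups in the fit (adjusted p = 0.00854). With any 1 sample removed, the *Akr1b8* difference ranged from 1.27 to 1.87 and its adjusted p from 0.00858 to 0.0698. A83-01 in cKO organoids gave 0.22 (95% interval −0.45 to 0.89, adjusted p = 0.994), and the difference between genotypes in the A83-01 effect, −1.69, had an adjusted p of 0.126.

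*Akr1b10*, the neighbour between them, was between 648 and 1099 normalized counts in every sample. Its normalized counts were 683, 757 and 718 in control + vehicle (719 ± 37.1, SD, n = 3) and 1099, 938, 913 and 1008 in control + A83-01 (990 ± 83.3, SD, n = 4). These 2 groups did not overlap, with a log2 difference of 0.46 (SE 0.15). The *Smad2/3* cKO values were 966, 850, 648 and 883, which overlapped the control samples (log2 difference 0.20, SE 0.17, adjusted p = 0.424). With A83-01 the cKO values were 949, 1071, 854 and 845, and the log2 difference from cKO was 0.16 (95% interval −0.19 to 0.51, adjusted p = 0.994).

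*Akr1b3*, aldose reductase itself, was the most abundant AKR1B gene in every sample. It was at 24756, 14607 and 18543 normalized counts in control + vehicle and at 23050, 9947, 13406 and 20973 in control + A83-01, a log2 difference of −0.24 (SE 0.32). The *Smad2/3* cKO samples had 10787, 7110, 19564 and 9358. Of these 4 samples, 3 were below every control + vehicle sample and 1 was inside their range, and the log2 difference of −0.79 (95% interval −1.53 to −0.06) had an adjusted p of 0.121. With A83-01 the cKO samples had 8388, 11182, 17553 and 7668, a log2 difference of −0.04 from cKO (adjusted p = 0.997).

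**Figure D2:**
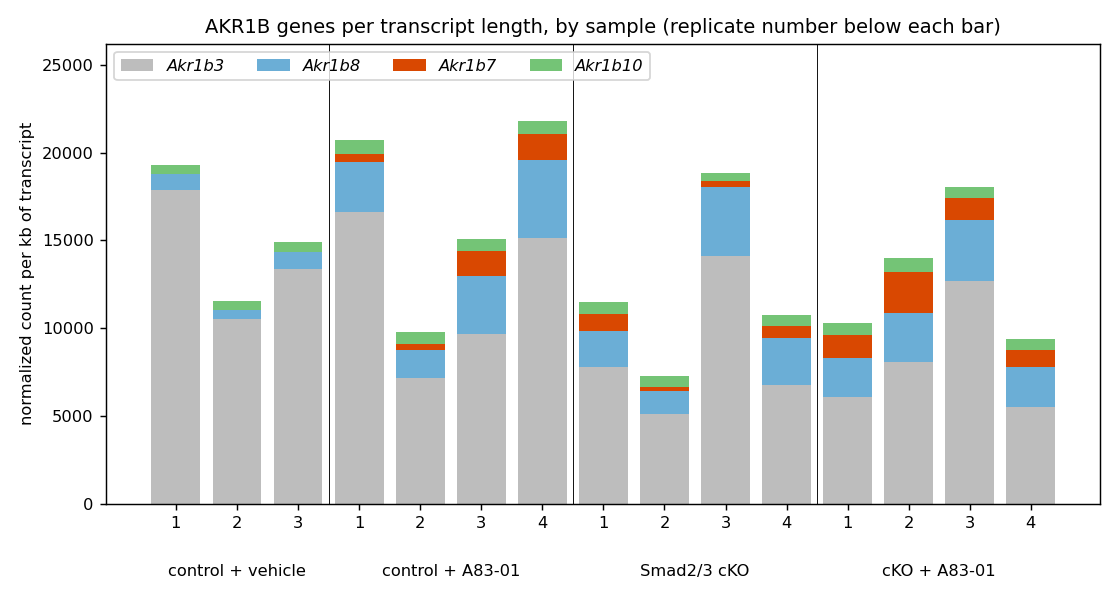
Normalized counts per kb of transcript (vertical axis) of the 4 AKR1B genes, stacked for each sample (horizontal axis, by group and replicate). *Akr1b3* made up 89.8% to 92.6% of the stack in control + vehicle and 57.7% to 80.1% in the other 12 samples.

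Levels of different genes were compared per kb of the transcript with the longest coding sequence. On that scale the AKR1B genes together were at 15239 ± 3863 normalized counts per kb in control + vehicle and 16856 ± 5561 with A83-01, and at 12092 ± 4869 in cKO organoids and 12929 ± 3951 with A83-01 (SD), and the ranges overlapped. The make-up differed more than the total. *Akr1b3* held 91.2% ± 1.42 of the sum in control + vehicle and 71.7% ± 6.72 with A83-01, and 68.9% ± 5.06 in cKO organoids and 61.3% ± 5.87 with A83-01. *Akr1b8* held 5.19% ± 1.30, 18.0% ± 3.83, 20.3% ± 3.30 and 21.5% ± 2.14 in the same order. *Akr1b7* held 0.0153% ± 0.0141, 5.64% ± 3.18, 4.96% ± 3.01 and 11.6% ± 4.11, so that even where it was highest it stayed below *Akr1b8*. These shares rest on the *Akr1b7* and *Akr1b8* values given above and were not tested.

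*Akr1a1*, aldehyde reductase, and *Akr1e1*, which reduces 1,5-anhydrofructose, were called in no comparison. *Akr1a1* was at 17860 ± 3669, 18361 ± 4968, 16279 ± 818 and 17924 ± 3903 normalized counts (SD) in the 4 groups, ordered as control with vehicle and with A83-01, then cKO without and with A83-01. Its log2 difference was −0.11 in cKO against control (95% interval −0.49 to 0.26) and 0.11 with A83-01 in cKO (−0.26 to 0.48). *Akr1e1* was at 1066 ± 134, 1326 ± 319, 1104 ± 197 and 1164 ± 176, and its 2 log2 differences were 0.04 (−0.35 to 0.43) and 0.08 (−0.29 to 0.45). The ranges of all 4 groups overlapped for both genes.

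*Akr1c13* (ENSMUSG00000021213), which encodes an alcohol and hydroxysteroid dehydrogenase of the AKR1C subfamily, moved the other way. Its normalized counts were 1401, 1699 and 1435 in control + vehicle (1512 ± 163, SD, n = 3) and 503, 777, 287 and 378 in control + A83-01 (486 ± 213, SD, n = 4). The *Smad2/3* cKO samples were at 631, 792, 596 and 559 (645 ± 103, SD, n = 4), and with A83-01 at 457, 848, 487 and 749 (635 ± 193, SD, n = 4). Every one of these 12 samples was below every control + vehicle sample, and the 3 groups overlapped each other.

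*Akr1c13* fell in cKO organoids by 1.24 on the log2 scale (SE 0.16, limma adjusted p = 0.00164). Without control + vehicle replicate 2, the sample with the highest value, the adjusted p was 0.0111 and the call was lost; without cKO replicate 2 the log2 difference was −1.34 (adjusted p = 0.0018). With A83-01 in control organoids the log2 difference was −1.73 (SE 0.31), and with A83-01 in cKO organoids it was −0.06 (95% interval −0.56 to 0.44, adjusted p = 0.994). The difference between genotypes in the A83-01 effect was 1.67 with an adjusted p of 0.0503, and without control + A83-01 replicate 2 it was 1.93 with an adjusted p of 0.00985. Leaving out each sample in turn gave adjusted p-values from 0.00985 to 0.141.

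*Akr1c12*, whose coding sequence is nearly the same, was lower than it in every sample and did not separate the groups. Its means were 106 ± 35.3, 90.9 ± 49.7, 109 ± 25.6 and 116 ± 22.0 normalized counts (SD) in the 4 groups in the same order, and all ranges overlapped. The log2 difference in cKO against control was 0.07 (95% interval −0.71 to 0.85, adjusted p = 0.909).

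Because these genes can share reads, their sum and their ratio were also compared, measures that were chosen after the values were seen. The sum was 1618 ± 188 with vehicle and 577 ± 255 with A83-01 in control organoids, and 754 ± 123 and 751 ± 198 in cKO organoids (SD), so control + vehicle was again highest. The ratio of *Akr1c13* to *Akr1c12* was 12.1, 12.5 and 21.4 with vehicle in control organoids and at most 9.48 in any other sample. For cKO against control an exact two-sided permutation test gave p = 0.0571 for the sum and for the ratio, the smallest p that 4 samples against 3 allow, so this test could not reach 0.05. For A83-01 in cKO organoids the exact permutation p was 0.914 for the sum and 0.629 for the ratio.

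**Figure D3:**
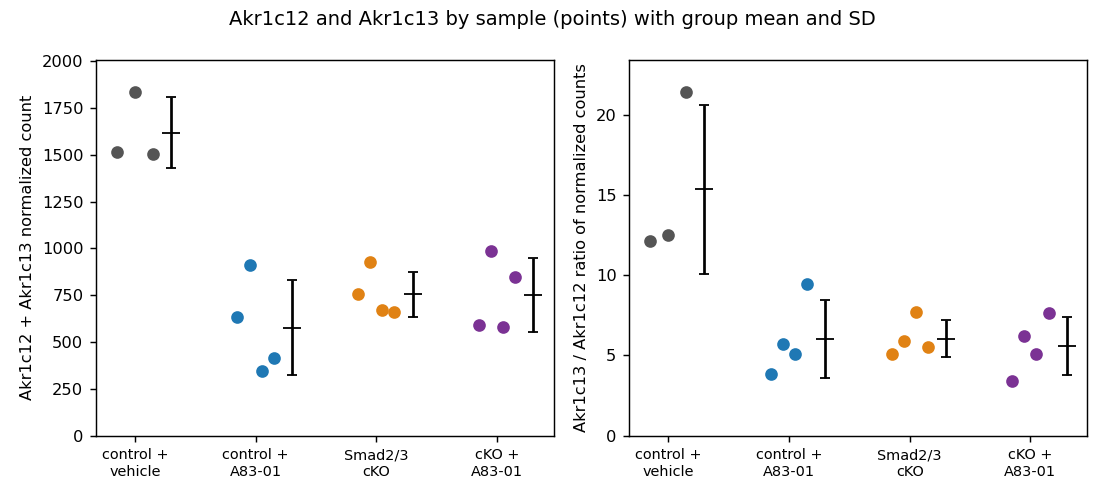
Sum of the *Akr1c12* and *Akr1c13* normalized counts (left vertical axis) and their ratio (right vertical axis) in the 4 groups (horizontal axes); points are samples, and the bars show the group mean and SD. The 3 control + vehicle samples were above all 12 other samples in both panels.

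*Akr1c14*, a 3α-hydroxysteroid dehydrogenase, was low in every sample. Its normalized counts were 0, 4.46 and 3.83 in control + vehicle and 14.0, 56.7, 13.1 and 25.1 in control + A83-01. The cKO samples had 39.5, 4.03, 5.93 and 9.93, and with A83-01 16.7, 25.2, 19.3 and 11.9. The control + A83-01 samples were all above the control + vehicle samples, and *Smad2/3* cKO overlapped control + vehicle. For A83-01 in control organoids the log2 difference was 3.00, and 1.42 to 4.23 over the alternative runs. The gene had a mean under 10 in cKO and control with vehicle and was not tested there. With A83-01 in cKO the log2 difference was 0.74 (95% interval −0.78 to 2.27, adjusted p = 0.994).

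**Figure D4:**
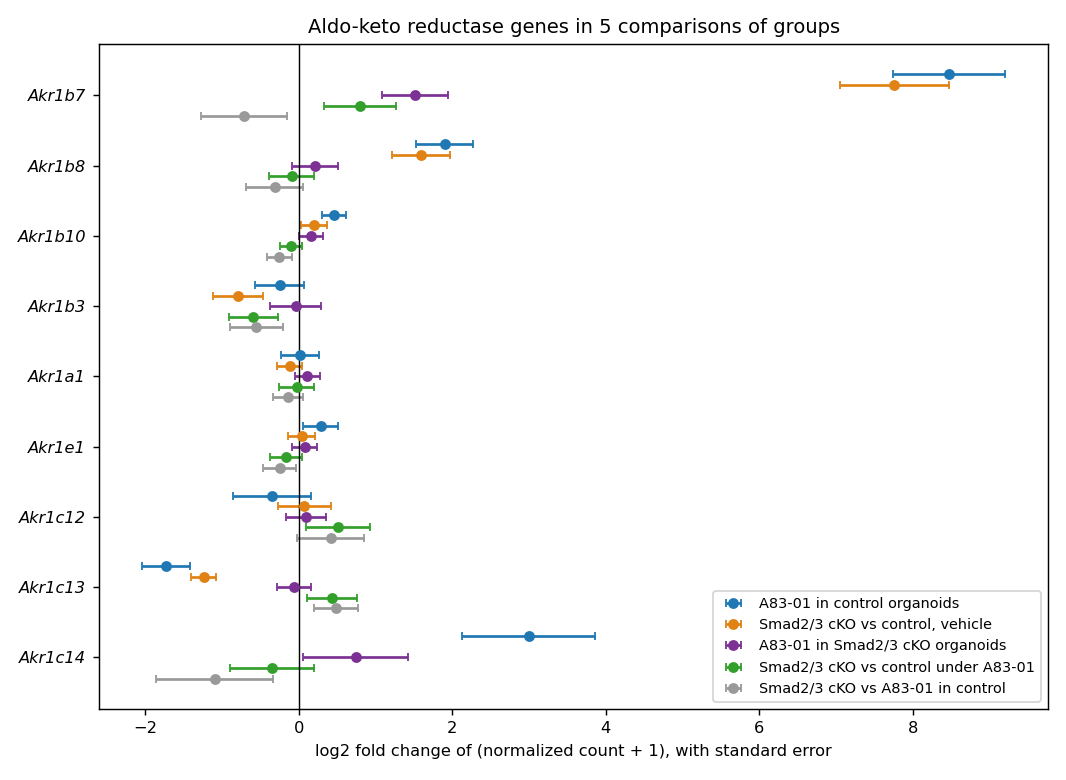
Differences of log2(normalized count + 1) for the 9 genes in the 5 comparisons of groups (horizontal axis; points with standard errors, colours name the comparison). *Akr1b7* stood at 8.47 and 7.76 in the comparisons with control + vehicle, *Akr1b8* at 1.91 and 1.60, and *Akr1c13* at −1.73 and −1.24. *Akr1c14*, a low gene, stood at 3.00 with A83-01 in control organoids and was not tested in cKO against control with vehicle. The 3 comparisons without control + vehicle lay between −1.09 and 1.52.

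A gene was called changed at a limma adjusted p below 0.01 and a fold above 1.4 in either direction. With A83-01 in control organoids 1 of the 9 genes was called, *Akr1b7* (higher), where 2.27% of all genes tested were called (1.19% higher, 1.08% lower), and 5 did not overlap between the groups (*Akr1b7*, *Akr1b8*, *Akr1b10*, *Akr1c14* higher and *Akr1c13* lower), where 21.7% of all genes did not. Since *Akr1b7* was picked in this comparison, nothing is read from these counts. With the mouse number as a block, 3 of the 9 were called, *Akr1b8* and *Akr1c13* besides *Akr1b7*. Deletion against control, both with vehicle, uses the same vehicle samples, so nothing is read from the call of *Akr1b7* there either. Of the other 7 tested, 1 was called, *Akr1c13* (lower), where 7.38% of all genes were called (4.08% higher, 3.3% lower), and 2 did not overlap (*Akr1b8* and *Akr1c13*), where 30.8% of all genes did not. The members' median log2 difference was 0.06 there, and the median of all genes tested was 0.0024.

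None of the 9 was called by limma with A83-01 in cKO organoids, where 0% of all genes were called; at an unadjusted p under 0.05 there was 1 member, *Akr1b7*, and 4.26% of all genes. *Smad2/3* cKO against control under A83-01 also gave 0 of 9 (0.0232% of all genes called; 0 members and 9.52% of all genes at an unadjusted p under 0.05), as did *Smad2/3* cKO against A83-01 in control (0% of all genes called; 0 members and 6.36% of all genes at an unadjusted p under 0.05). No member separated the groups without overlap in these 3 comparisons, where 2.9%, 6.12% and 3.45% of all genes did. The difference between genotypes in the A83-01 effect contains the value for which *Akr1b7* was picked, so its call there is not counted. None of the other 8 was called by limma, where 0.551% of all genes were called (0.452% with a negative difference), and 2 of them (*Akr1b8* and *Akr1c13*) had an unadjusted p under 0.05, as 14.3% of all genes did. For *Smad2/3* cKO minus control + A83-01, deletion against receptor blockade, the log2 difference was −0.71 for *Akr1b7* (95% interval −1.96 to 0.53), −0.31 for *Akr1b8* (−1.14 to 0.52, adjusted p = 0.815) and 0.49 for *Akr1c13* (−0.15 to 1.13, adjusted p = 0.729).

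Control replicates 1, 2 and 3 carry the same mouse numbers without and with A83-01, which allowed a comparison within each number. *Akr1b8* was 3.09, 3.26 and 3.34 times as high with A83-01 in the 3 pairs, and replicate 2 had the lowest level both without and with A83-01. *Akr1b10* was 1.61, 1.24 and 1.27 times as high. *Akr1c13* was 0.359, 0.457 and 0.200 times its vehicle level, and *Akr1b3* 0.931, 0.681 and 0.723 times. The *Akr1b3* groups overlapped all the same. These pairs belong to the comparison in which *Akr1b7* was picked. The share of all genes that moved in the same direction in every pair was not counted, so nothing is read from the directions.

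**Figure D5:**
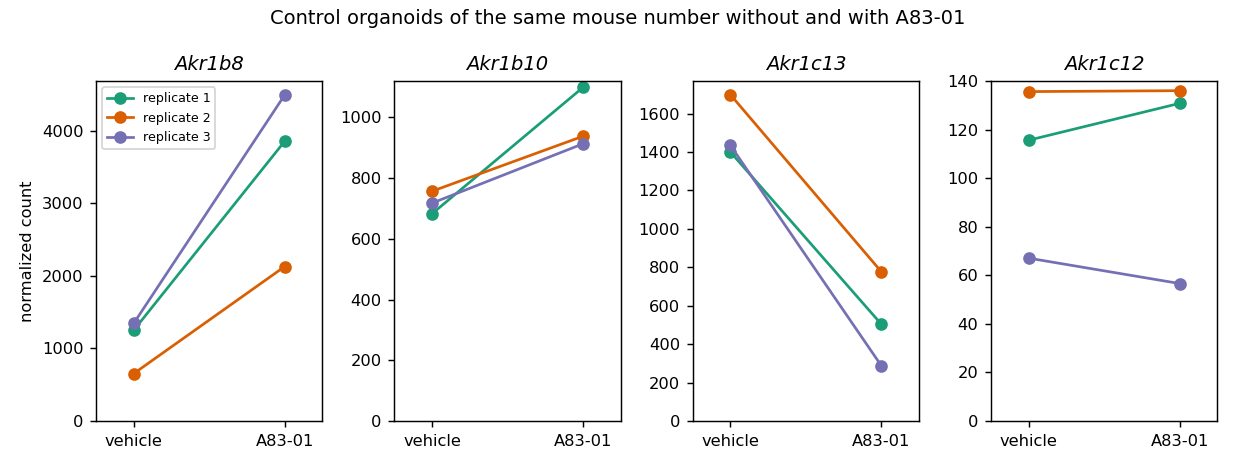
Normalized counts (vertical axes) of *Akr1b8*, *Akr1b10*, *Akr1c13* and *Akr1c12* in control organoids with vehicle and with A83-01 (horizontal axes); each line joins the samples of 1 mouse number (replicates 1 to 3). The *Akr1b8* lines rise by 3.09 to 3.34 times, while the *Akr1c12* lines are nearly flat for replicates 1 and 2.

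Of the other aldo-keto reductase genes, 7 were in the table (*Akr1c18*, *Akr1c19*, *Akr1c21*, *Akr7a5*, *Kcnab1*, *Kcnab2* and *Kcnab3*). *Akr1c18*, which inactivates progesterone, was at 4650, 4247 and 5452 normalized counts with vehicle in control organoids and at 113862, 95623, 100815 and 147087 in *Smad2/3* cKO, and it rose by 4.57 on the log2 scale (SE 0.19, limma adjusted p = 1.2e-05). The A83-01 samples were at 76600, 64012, 122655 and 158226 in control organoids and at 133837, 82169, 129039 and 137939 in cKO organoids. All of these were above control + vehicle. *Akr1c18* held 75.0% ± 4.46 of the AKR1C normalized counts per kb in control + vehicle and 99.3% ± 0.218 in *Smad2/3* cKO (SD). *Akr1c13* held 22.7% ± 3.59 of that sum in control + vehicle and 0.555% ± 0.173 in *Smad2/3* cKO. The sum itself was 5298 ± 385 per kb in control + vehicle and 95956 ± 19224 in *Smad2/3* cKO. *Akr1c13* alone was at 1198 ± 129 and 511 ± 81.5 per kb (SD), so its share fell mostly because *Akr1c18* enlarged the sum. These shares were not tested. Of the 6 other aldo-keto reductase genes tested in *Smad2/3* cKO against control, both with vehicle, *Akr1c18* alone was called. *Akr7a5*, an aflatoxin aldehyde reductase, was at 1524 to 2067 in control + vehicle and 1101 to 1317 in *Smad2/3* cKO (log2 difference −0.61, adjusted p = 0.0215).

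Over all 15 samples and 13065 genes, the genes whose log2 values were most like those of *Akr1b7* were *Kctd5* (Pearson r = 0.980), *Napsa* (0.980), *Havcr1* (0.977), *Aqp8* (0.976) and *Rrm2* (0.976). The samples share their groups, so these correlations follow mainly from 3 low and 12 high samples and are given with no test. *Akr1c18* came at rank 12 (r = 0.964). Within the family r was 0.847 for *Akr1b8*, 0.795 for *Akr1c14*, 0.692 for *Akr1b10*, −0.411 for *Akr1b3* and −0.829 for *Akr1c13*.

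Enzymes that share substrates or cofactors with the family were compared between *Smad2/3* cKO and control, where 7.38% of all genes were called. Among 20 tested enzymes of carbonyl metabolism, 2 rose and 2 fell. *Adh1*, an alcohol dehydrogenase that also oxidises retinol, was at 0, 2.63 and 3.47 normalized counts in control + vehicle and at 211, 197, 178 and 139 in *Smad2/3* cKO (log2 difference 6.15, limma adjusted p = 0.000392, a size that depends on the pseudocount). *Aldh7a1* rose by 0.78 (adjusted p = 0.00539). *Dcxr*, which reduces dicarbonyls and xylulose, fell by 1.68 (adjusted p = 0.00377), and *Aldh2*, the mitochondrial acetaldehyde dehydrogenase, fell by 1.72 (adjusted p = 0.00499). The median log2 difference of the 20 was −0.07.

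In the polyol pathway, *Sord*, the sorbitol dehydrogenase that acts after aldose reductase, rose in *Smad2/3* cKO. It was at 38.6, 51.3 and 29.5 normalized counts in control + vehicle and at 185, 207, 165 and 196 in *Smad2/3* cKO (log2 difference 2.24, adjusted p = 0.00164), and it was the 1 gene called of 4 tested. Among 19 genes of the NRF2 response and of NADPH supply, 2 rose and none fell. These were *Gclm*, a subunit of the enzyme that starts glutathione synthesis (0.76, adjusted p = 0.00855), and *Srxn1*, sulfiredoxin (0.75, adjusted p = 0.00905). *Nqo1*, a widely used NRF2 target, was at 389 ± 153 in control + vehicle and 551 ± 175 in *Smad2/3* cKO (SD) and was not called (adjusted p = 0.318). *Txnrd1* was at 9510 ± 248 and 6327 ± 1179 in the same groups, and *Gsr* at 10573 ± 1577 and 7539 ± 164 (SD). Both were lower in cKO and not called. Of the 19 genes, 10 had a log2 difference above 0, and the median was 0.02.

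None of 5 tested genes of prostaglandin F2α synthesis and transport was called by limma in this comparison, and their median log2 difference was −0.21. Of the cyclooxygenase genes, *Ptgs1* had 2717 ± 1550 normalized counts with vehicle in control organoids and 2104 ± 674 after deletion, and *Ptgs2* had 580 ± 222 and 326 ± 248 (SD). Among 6 tested steroid enzymes and regulators, *Hsd11b1*, which makes active glucocorticoid, was the 1 gene called, with 124.6 ± 57.4 in control + vehicle and 20684 ± 10189 in *Smad2/3* cKO (log2 difference 7.35, adjusted p = 3.1e-05). *Nr5a1*, the steroidogenic factor known to drive *Akr1b7* in the adrenal gland, was at or below 2.68 in control + vehicle and listed at 0 in all 4 *Smad2/3* cKO samples. With A83-01 it was at most 0.946 in control organoids and 3.23 in cKO organoids. Values this near the floor do not allow the groups to be compared. Of these 5 lists, *Hsd11b1* was also the 1 gene called with A83-01 in control organoids (log2 difference 6.27), and no gene was called with A83-01 in cKO organoids.

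Markers of other cell types moved with some of these groups. The summed normalized count of 5 leukocyte genes was 1203 to 2513 with vehicle and 3162 to 8346 with A83-01 in control organoids, and 1956 to 5320 and 3839 to 7533 in cKO organoids. Most of it was *Cd68*, which epithelial lysosomes can also hold, while *Ptprc* was at 12.5 to 38.5 in control + vehicle and at 68.5 or more in every other sample. *Acta2*, a smooth muscle gene, was at 53.6 to 175.7 in control + vehicle and at 43.5 or less elsewhere. The 6 stromal genes summed to 27.4 to 190.7 with vehicle in control organoids and 2.96 to 24.7 in cKO organoids, without overlap, and to 4.79 to 54.7 and 3.99 to 128.6 with A83-01. The 3 genes of ciliated cells summed to 16.5 to 44.6 and 4.86 to 14.3 with vehicle, again without overlap, and to 1.86 to 29.2 and 3.35 to 16.3 with A83-01. *Cd52* was 0 in all 3 control + vehicle samples and at most 11.4 elsewhere, apart from cKO replicate 2. The part of these cells in the aldo-keto reductase values was not tested.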

How the data were processed

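RNA was extracted from organoids, made into cDNA with a low-input kit and sequenced by the authors. The deposited values, called signal here, are counts per gene that the authors estimated with Salmon 1.4.0 and divided by a DESeq2 1.32.0 size factor; the submitters' processing notes name the build GRCm39. Totals were 20.2 to 24.4 M per sample. The table had 0 columns of no known sample.

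Groups follow the labels. For each comparison limma 3.58.1 in R 4.3.3 (lmFit, eBayes with trend) was run on log2(value + 1) of the groups compared, for genes whose mean there was 10 or more, with Benjamini-Hochberg adjustment over all genes; the difference between genotypes used 1 fit of all 15 samples. A gene was called at an adjusted p below 0.01 and a fold above 1.4 or below 0.714. The pseudocount makes the differences of low genes too small. Adjusted p-values are limma's. No p is given for *Akr1b7* except with A83-01 in cKO organoids, nor for any gene in the comparison that picked it.

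All listed members and all other aldo-keto reductase genes found were named, with up to 4 called genes per related list and the 5 genes most like *Akr1b7*. *Nqo1*, *Txnrd1*, *Gsr*, *Ptgs1*, *Ptgs2* and *Nr5a1* were added after their values were seen. Members and lists were chosen with earlier results of these data known. *Akr1c6*, *Akr1c20*, *Akr1cl* and *Akr1d1* were not analysed here. Positions and lengths are GENCODE's on GRCm38, and promoters RefSeq's on GRCm38.p6. On simulated data, changes of 2 on the log2 scale were recovered for 43.9% of genes with A83-01 in control organoids, 58.5% in cKO against control and 64.1% with A83-01 in cKO. For changes of 1 the shares were 10.9%, 7.94% and 26.6% in the same order, so most changes of that size would be missed.

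By the labels, replicates 1 to 3 of the 2 control groups carry the same mouse numbers, which pairs those samples. Same-numbered samples deviated together there (r = 0.354 to 0.423 in 3 pairs). Control + A83-01 replicate 4 and control + vehicle replicate 3, of different numbers, reached 0.347. In cKO organoids, replicate 2 with A83-01 and replicate 1 with vehicle, also of different numbers, reached 0.394. The r values alone therefore do not show which samples share a mouse. Replicate 2 of *Smad2/3* cKO and replicate 1 of *Smad2/3* cKO + A83-01 also share a mouse number (r = 0.355), as do replicate 1 of *Smad2/3* cKO and replicate 1 of both control groups (r = 0.0774 with vehicle, 0.0944 with A83-01), although their genotypes differ. Some groups compared thus share mouse numbers, and p-values measure only the spread between these samples. Alternatives tried were the pseudocount, the filter, quantile normalization, eBayes without trend, blocks and covariates, all 4 groups in the fit, the thresholds, and leaving out each sample.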

Additional observations from a re-analysis of the deposited data

Results flagged for a closer look

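*Akr1c14* in *Smad2/3* cKO replicate 1 was at 39.5 normalized counts, while the other 3 samples of the group were at 4.03 to 9.93. It lay farther from its group than Dixon's 95% critical value for 4 samples allows; 27 groups of 4 samples were looked at, and chance alone marks about 1 group in 20.

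The A83-01 difference of *Akr1b7* was smaller in cKO than in control organoids (1.52 against 8.47 on the log2 scale, a difference of −6.96). It was marked as a difference between groups in the same contrast. *Akr1b7* had been picked for the second of these values, so this is a description with no p. Over the alternative runs the difference between genotypes ranged from −8.27 to −4.86, so its size depends on the processing.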

How the results depend on the processing

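No called member changed sign under any alternative run. The counts given here include *Akr1b7*, which was picked on these samples. With A83-01 in control organoids, 1 member was called, but 3 (2 higher, 1 lower) with the replicate block, 3 with mouse numbers below 390 as a covariate, 3 with all 4 groups in the fit and 3 at an adjusted p below 0.05; leaving out 1 sample gave 1 to 3, with 3 without control + A83-01 replicate 2. In cKO against control with vehicle, 2 were called, and 1 to 3 over the alternative runs. The replicate block gave 1 (*Akr1c13* adjusted p = 0.0110), but its numbers do not pair these samples (r = 0.0153 to 0.0774 over 3 pairs). *Akr1b8* was also called with all 4 groups in the fit (adjusted p = 0.00854) and at an adjusted p below 0.05. Leaving out 1 sample gave 1 to 3, with 1 without control + vehicle replicate 2 and 3 without cKO replicate 2. The count for the difference between genotypes was 1, and 1 to 2 when 1 sample was left out, with 2 without control + A83-01 replicate 2. The other 3 comparisons gave 0 under every alternative run. The mouse number as a block is the same fit as the replicate block in the control comparison and could not be run elsewhere, since fewer than 2 numbers are shared. Over all genes, cKO against control called 970, and 452 without the trend, 211 with the replicate block, 2413 at an adjusted p below 0.05 and 280 to 992 when 1 sample was left out. A83-01 in control organoids called 295, and 443 with the number covariate, 655 with all 4 groups in the fit, 955 at an adjusted p below 0.05 and 49 to 312 when 1 sample was left out. Under A83-01, cKO against control called 3, and 72 with the number covariate.

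The size of the *Akr1b7* differences depends on the pseudocount, because its control + vehicle values are near 0: with pseudocounts of 0.1 and 10 they were 9.79 and 6.36 for A83-01 in control organoids and 9.08 and 5.66 for cKO against control. Between cKO and control organoids under A83-01, *Akr1b7* differed by 0.80, and by 1.70 with mouse numbers below 390 as a covariate. All *Smad2/3* cKO + A83-01 samples carry numbers below 390, while every other group holds numbers on both sides. In control + A83-01 the samples below 390 were at 618 and 482 and the others at 1820 and 1946. In *Smad2/3* cKO they were at 1246 and 287 below 390 and at 462 and 883 above. The part of the number series in these values was not tested.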
